A study of Mus musculus with 4 samples.

Results

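Gene expression in liver was compared between Pnpla7-/- mice and wild-type mice, and the difference is described across all genes measured, by its size and by the function of the genes. The comparison rests on 2 of the 4 arrays of the series, taken by their sample titles, and the other 2 arrays hold white adipose tissue (WAT). The wild-type group was liver of Pnpla7+/+ mice, and the knockout group was liver of Pnpla7-/- mice, all of the C57BL/6N strain and 4 weeks old. The labels give no treatment for either group, and the sex of the animals and the removed stretch of the gene are not given in the sources used here. Each group was 1 array of RNA pooled from 5 animals, so the spread between animals cannot be seen and the groups were not tested against each other.

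Of 19899 genes with a named probe, 14468 were measured, meaning that at least 1 probe was well above background on both liver arrays. The level of a gene is its probe intensity divided by the 75th percentile of its own array (1470 and 1764 for the wild-type and labelled-knockout liver arrays), and a ratio is the level in the labelled knockout over that in wild type, given on the log2 scale. A gene is counted as higher or lower where the ratio reached 2-fold. Levels are compared between the arrays for the same probes only, never between genes. The log2 ratio varied between repeat spots with a median SD of 0.04 (291 probes), and different probes of a gene had a pooled SD of 0.20 (4386 genes). These errors cover spots and probes, not animals.

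PNPLA7 is an enzyme of the endoplasmic reticulum that removes the fatty acid from lysophosphatidylcholine and so gives glycerophosphocholine, a source of choline. In liver, choline is oxidised to betaine, which donates a methyl group to homocysteine and so feeds the methionine cycle, the source of S-adenosylmethionine for methylation. The liver also makes most plasma proteins, bile acids and drug-metabolising enzymes, and many of these genes differ between male and female mice.

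The labels were checked first. Pnpla7 was at a level of 9.04 in wild type and 7.98 in the labelled knockout, and its single probe gave a log2 ratio of -0.18, which is smaller than the spread between probes of a gene. A probe outside the removed stretch checks nothing, so the directions rest on the labels and the second array is called the labelled knockout throughout. Of 24 measured hepatocyte markers, 0 differed 2-fold, and the hepatocyte products Alb, Ttr and Apoa2 were at levels of 321, 167 and 262 in wild type and 264, 136 and 223 in the labelled knockout. All 3 were thus near the same level on both arrays. In bulk tissue, fewer cells of a type and less RNA per cell cannot be told apart. On the wild-type array 65.5% of spots were well above background, on the labelled-knockout array 68.2%, and 0 spots were saturated.

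Most liver genes were nearly level between the arrays. The median log2 ratio was -0.03, 13288 genes (91.8%) lay within 1.5-fold, and the 5th and 95th percentiles were -0.50 and 0.55. In all 255 genes were higher (1.76% of those measured) and 126 were lower (0.871%), together 2.63%. These shares are the background for the counts of every gene list below. At 4-fold the counts were 36 higher and 23 lower, and at 8-fold they were 6 and 3. Higher genes were mostly dim and lower genes were more often bright. With the genes cut into 4 equal classes of mean level, the dimmest had 100 higher and 44 lower, while in the brightest 14 were higher and 39 lower. Bright genes as a whole sat slightly below 0, with a median of -0.20 in the brightest of 20 classes of level and medians between -0.12 and 0.02 in the others, so gene list medians are given beside genes of the same level as well. With normexp, another background correction with an offset of 50, the counts were 98 higher and 211 lower, so that 31.7% of the differing genes were higher in place of 66.9%. The same setting moved the median of all genes to -0.18, and list medians are judged relative to that shift.

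**Figure D1:**
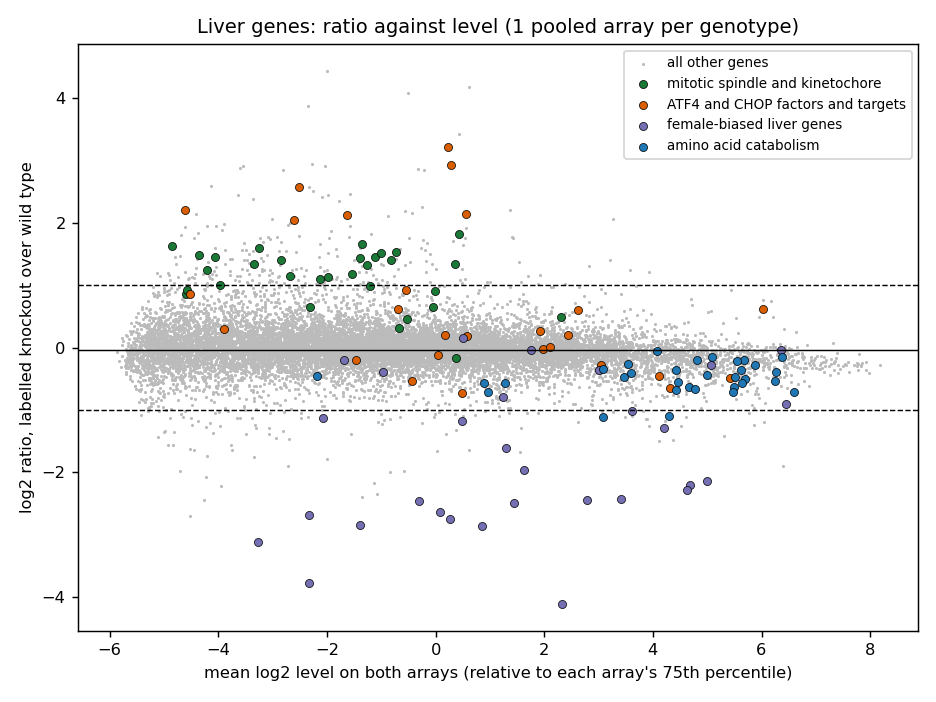
Log2 ratio of the labelled knockout over wild type (vertical axis) against the mean log2 level on both arrays (horizontal axis) for the 14468 measured liver genes, 1 point per gene, with 4 gene lists coloured, dashed lines at 2-fold and a solid line at the median of -0.03. Above the upper line lie 20 of 31 mitotic and 7 of 27 amino acid stress genes, below the lower line lie 21 of 30 female-biased genes, and all but 2 of the 32 amino acid catabolism genes sit between the lower line and 0.

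The lowest ratios in liver belonged to genes known to be expressed more in females than in males. This sex bias depends on the pattern of growth hormone secretion, read by the growth hormone receptor and STAT5B, and arises largely around puberty. Of 30 measured genes of the female-biased list, 21 were lower and 0 higher, against 0.871% of all genes, with a median log2 ratio of -2.05 and of -1.93 relative to genes of the same level. With normexp 20 were lower. Cyp2b13, a cytochrome P450, was at 20.9 in wild type and 1.20 in the labelled knockout, a 17.4-fold difference. A1bg, a secreted protein of the immunoglobulin family, was at 0.737 and 0.0535. Hao2, a peroxisomal hydroxyacid oxidase, was at 4.85 and 0.670. All 3 were thus far below their wild-type level. The sulfotransferases that act on hydroxysteroids were lower over a wide range of levels, from Sult2a1 (67.2 against 15.3) through Sult2a4 (24.7 against 4.58) to Sult2a7 (0.507 against 0.0786). Members of the list within 2-fold included Cyp2a4, a steroid hydroxylase, with a ratio of -0.90, the transcription factor Cux2 with -0.39 and the flavin monooxygenase Fmo2 with -0.03.

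Male-biased genes moved less than female-biased ones in number. Of 29 measured genes, 5 were higher and 2 lower, against 1.76% and 0.871% of all genes, and the median was 0.25. Slco1a1, a carrier of organic anions and bile salts, was at 0.382 in wild type and 1.83 in the labelled knockout. Hsd3b5, a steroid reductase, was at 0.386 and 1.31. Cyp4a12b and Cyp4a12a, which act on arachidonic acid, had ratios of 1.74 and 1.17, or 0.80 and 0.34 with normexp. The sulfotransferase Sult5a1 and Cyp8b1, which sets the cholic acid share of bile, were lower, both with -1.38. The major urinary proteins, carriers of pheromones that are male-biased in adults, had 0 of 11 measured genes at 2-fold and a median of -0.10, which turned above that of all genes with quantile, loess and normexp settings. Within the family Mup20 was at 55.8 and 93.6, with 0.29 and 1.21 from its 2 probes, and Mup3 at 87.9 and 68.7. Probes of such near-identical families (Sult2a, Cyp2b, Cyp2c, Cyp3a, Mup, Orm, Slc22) can share signal, so the member behind a value is uncertain.

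Genes of the hormone axis stayed within 2-fold. Of 22 measured genes for growth hormone, IGF1 and STAT5 signalling, 0 reached 2-fold and the median was -0.17. The receptors Ghr and Prlr had ratios of -0.77 (21.6 against 12.7) and -0.96 (3.51 against 1.80). Igf1, the growth factor that growth hormone induces in liver, had -0.49, with its 5 probes between -0.77 and 0.41, and Igfals, which holds it in plasma, -0.95. Stat5b had -0.61. The binding proteins Igfbp1 and Igfbp2 had 0.77 and 0.92, and the feedback inhibitors Socs2 and Cish had 0.83 and 0.51. Both probes of Xist, the RNA that coats the silenced X chromosome, were well above background on both liver arrays, while 0 of 7 probes of 6 Y-linked genes were so on either array. The probe of the further Y-linked gene Sry was above background on both arrays, at -4.95 and -5.32 on the log2 scale, near the dimmest level measured of -5.87. The part of the animals' sex in the values of the sex-biased genes was not tested.

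**Figure D2:**
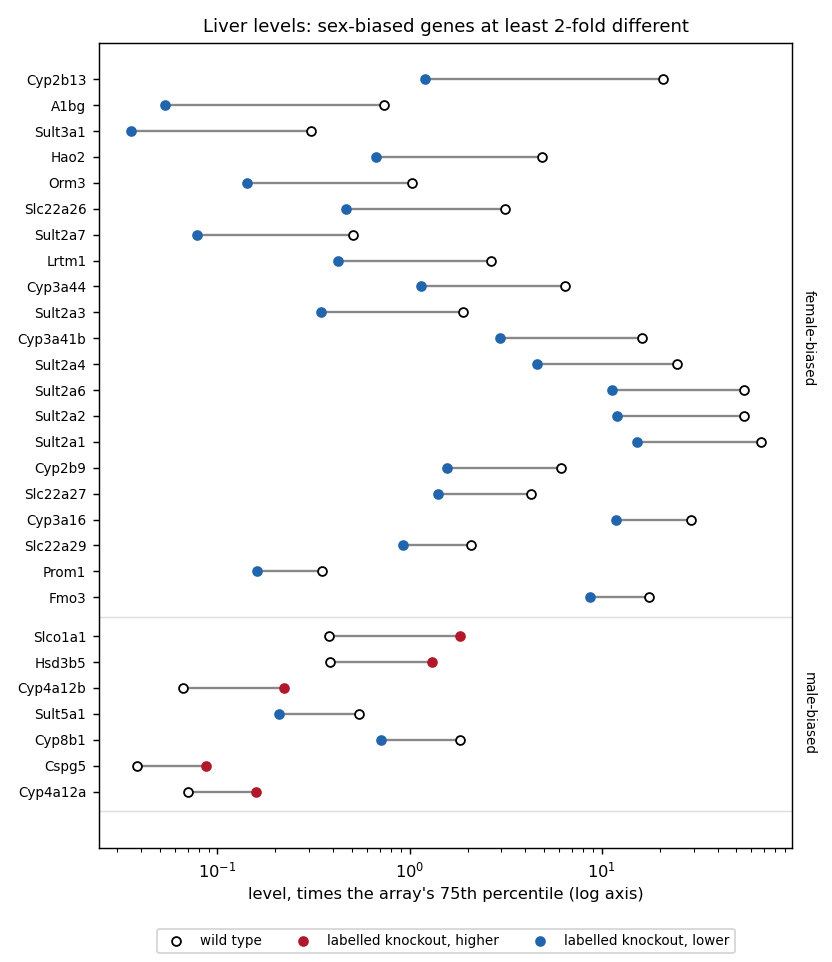
Level on the wild-type liver array (open circles) and on the labelled-knockout array (filled circles, red where higher and blue where lower), as multiples of the array's 75th percentile on a log axis, for the 21 female-biased and 7 male-biased genes at least 2-fold different. All 21 female-biased genes are lower in the labelled knockout, and 5 of the 7 male-biased genes are higher.

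Many of the lower genes lay side by side in the genome, in family clusters. Runs of at least 3 genes that differed 2-fold in 1 direction, with starts at most 500000 bases apart on the mm9 build, numbered 6 among lower genes, with 24 genes. On chromosome 7 all 7 measured Sult2a genes were lower over 686 kb (median -2.28), and so were Cyp2b10, Cyp2b13 and Cyp2b9 over 272 kb (median -1.97). Cyp3a16, Cyp3a41b and Cyp3a44 on chromosome 5 had a median of -2.44. On chromosome 19, 5 of 6 measured Cyp2c genes (median -1.08) and 3 of 4 Slc22a carriers (median -1.39) were lower, with Cyp2c67 and Slc22a28 within 2-fold at -0.88 and -0.49. Orm1, Orm2 and Orm3 on chromosome 4, which encode the plasma protein orosomucoid, had a median of -1.25. Of the 7 runs among higher genes, 22 genes in all, 6 were spread among neighbours that were not higher, with the median of all measured genes from end to end between -0.07 and 0.23. The other was on the X chromosome, where Bex2, Bex1 and Tceal5, small related proteins best known from neurons, were 3 of 5 measured neighbours with a median of 2.52.

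Genes of the response to amino acid shortage held several of the highest ratios in labelled-knockout liver. In this pathway the kinase GCN2 senses uncharged tRNA, translation of the transcription factor ATF4 rises, and ATF4 with C/EBP partners induces enzymes that make amino acids. Of 27 measured factors and targets of ATF4 and CHOP, 7 were higher and 0 lower, against 1.76% and 0.871% of all genes, with a median of 0.26. Asns, which makes asparagine, was at 0.382 in wild type and 3.56 in the labelled knockout, a 9.32-fold difference. Fgf21, a hormone that the liver secretes in fasting and protein restriction, was at 0.441 and 3.38. The enzymes of serine synthesis Phgdh and Psat1 were at 0.0713 and 0.0811 in wild type and at 0.425 and 0.335 in the labelled knockout, and Psph, the last enzyme of the path, had a ratio of 0.92. The stress factors Nupr1 and Atf3 had ratios of 2.15 and 2.13. Mthfd2, a mitochondrial folate enzyme, had 2.20, or 0.24 with normexp, and was dim in wild type at 0.0190.

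The list was uneven. Atf4 transcript itself had a ratio of 0.20, Ddit3, which encodes CHOP, 0.62, and the pseudokinase Trib3 0.60. Other known targets were at or below their wild-type level, with Sesn2 at -0.12, the stress hormone Gdf15 at -0.03, Herpud1 at -0.48 and Chac1, which degrades glutathione, at -0.73. Of 19 measured cytosolic aminoacyl-tRNA synthetases, which load amino acids onto tRNA and include ATF4 targets, 0 reached 2-fold and 17 lay above genes of the same level, with a median of 0.20. Yars had the largest ratio at 0.80. Among 25 amino acid transporters 0 reached 2-fold, with Slc7a1, for cationic amino acids, at 0.96, Slc1a5, for glutamine, at 0.83 and Slc38a2, the inducible carrier of system A, at -0.53. The unfolded protein response list had 0 of 21 genes at 2-fold and a median of -0.12, which turned above that of all genes with normexp, and its chaperone Hspa5 was at 48.7 and 51.1.

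Promoters are shown for the 4 genes of this list that differed 2-fold and held a C/EBP-ATF response element, the site that ATF4 binds with its partners. It was searched as TGATGNAA on both strands in the 250 bases before the gene's start, from RefSeq on GRCm38.p6. Of the 27 genes 26 had a promoter in the table, and 10 of these held the letters, among them 4 of the 7 higher genes (57.1%). The share was 3.45% of all 32851 promoters, and 2.74% of the 11493 genes measured in liver with a promoter. Psat1, Phgdh and Mthfd2 were without a match in this window, while Chac1, Herpud1 and Vldlr, which were not higher, had one. Capitals mark the match, which lies 23 to 16 bases before the start in Asns (chr6:7693210-7693459, minus strand), 139 to 132 in Fgf21 (chr7:45615491-45615740, minus strand) and 110 to 103 in both Atf3 (chr1:191183334-191183583, minus strand) and Nupr1 (chr7:126625471-126625720, minus strand). None of the 4 matches overlaps a CCAAT box.
Asns: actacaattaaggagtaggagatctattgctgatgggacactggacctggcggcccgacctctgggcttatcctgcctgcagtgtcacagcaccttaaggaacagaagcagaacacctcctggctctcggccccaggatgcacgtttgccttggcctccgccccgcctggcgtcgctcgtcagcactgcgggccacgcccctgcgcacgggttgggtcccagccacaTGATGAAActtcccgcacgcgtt
Fgf21: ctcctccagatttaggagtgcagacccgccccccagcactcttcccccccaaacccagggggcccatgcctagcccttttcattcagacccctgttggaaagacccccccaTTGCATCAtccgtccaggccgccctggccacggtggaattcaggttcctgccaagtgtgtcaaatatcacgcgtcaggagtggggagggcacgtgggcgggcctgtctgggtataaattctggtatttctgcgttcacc
Atf3: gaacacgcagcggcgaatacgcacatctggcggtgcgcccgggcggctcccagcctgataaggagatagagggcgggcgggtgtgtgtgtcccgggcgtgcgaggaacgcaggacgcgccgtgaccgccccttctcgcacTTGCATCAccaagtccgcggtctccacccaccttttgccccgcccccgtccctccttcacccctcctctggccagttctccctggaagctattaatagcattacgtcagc
Nupr1: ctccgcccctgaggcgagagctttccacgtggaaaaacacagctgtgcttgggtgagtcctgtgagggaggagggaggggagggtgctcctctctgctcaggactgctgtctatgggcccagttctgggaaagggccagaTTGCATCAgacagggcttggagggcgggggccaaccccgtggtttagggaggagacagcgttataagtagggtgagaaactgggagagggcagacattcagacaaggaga
In Asns the match reads on the gene's own strand, and in the other 3 genes it reads on the opposite strand.

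Enzymes that break amino acids down had small ratios of 1 sign. All 32 measured genes of amino acid catabolism had a ratio below 0, 2 of them were lower by 2-fold (1 with normexp), and the median was -0.47, or -0.31 relative to genes of the same level, which were themselves below 0. Hal, the first enzyme of histidine breakdown, was at 12.5 and 5.77. Oat, which converts ornithine, was at 28.5 and 13.4, and had -0.96 with quantile normalization. Gnmt, which spends S-adenosylmethionine on glycine, was at 123 and 75.3. Among the smaller differences were those of Gpt2 (-0.05), an alanine transaminase, and Bckdha (-0.16), a subunit of the branched-chain ketoacid dehydrogenase. In the urea cycle 0 of 9 genes reached 2-fold, and the median of -0.29 was -0.09 relative to genes of the same level. There Otc had -0.55 and Asl -0.53, and Nags, which makes the activator of the cycle, had 0.09.

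Genes of the methionine cycle and of choline oxidation lay mostly below 0 and within 2-fold. Of 23 measured genes 0 reached 2-fold, 17 lay below 0, and the median was -0.35, or -0.22 relative to genes of the same level. The steps from choline to glycine were Chdh at 0.03, Aldh7a1 at -0.19, Bhmt at -0.49, Dmgdh at -0.57 and Sardh at -0.67. Of the methionine cycle enzymes, Mat1a, which makes S-adenosylmethionine in hepatocytes, was at 61.6 and 48.9, Ahcy at 13.7 and 10.2, and Cbs, the entry to cysteine synthesis, at 56.1 and 39.4. Mtr, which remethylates homocysteine from folate, had 0.10. Odc1 and Srm, the first enzymes of polyamine synthesis, had 0.14 and 0.46.

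Genes of phosphatidylcholine synthesis and turnover stayed within 2-fold, with 0 of 25 measured genes past the limit and a median of -0.09, which turned above that of all genes with normexp. The other lysophospholipases Lypla1 and Lypla2 were at 2.66 and 13.5 in wild type and 2.31 and 13.8 in the labelled knockout. Pnpla6, the closest relative of Pnpla7, had a ratio of 0.23. Pcyt1a, the regulated step of the choline route to phosphatidylcholine, had -0.05, and Pemt, the methylation route, -0.25. The glycerophosphodiester phosphodiesterases differed among themselves, with Gdpd1 at 0.97, Gde1 at 0.32, Gdpd3 at 0.02 and Gpcpd1, which frees choline from glycerophosphocholine, at -0.64. Tmem86a, of a family that cleaves vinyl ether lysophospholipids, was outside the list and higher, at 1.43 and 4.89.

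Cell division genes were numerous among the higher genes. In the list of the mitotic spindle and kinetochore 20 of 31 measured genes were higher and 0 lower, against 1.76% and 0.871% of all genes. The median was 1.25, and 1.23 relative to genes of the same level. With normexp 8 reached 2-fold. Cdc20, which activates the ubiquitin ligase of mitotic exit, was at 0.719 in wild type and 2.55 in the labelled knockout. Ube2c, the partner enzyme of that ligase, was at 0.220 and 0.693, the kinase Plk1 at 0.355 and 1.02, and the proliferation marker Mki67 at 0.806 and 2.04. Pttg1, securin, was the only measured member below 0, with a ratio of -0.17.

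The replication fork list had 9 of 26 genes higher and 0 lower (7 and 0 with normexp), against 1.76% and 0.871% of all genes. Its median was 0.69. Uhrf1, which keeps methylation on new DNA, was at 0.368 and 1.10. The helicase subunits Mcm2, Mcm3, Mcm4 and Mcm5 had ratios of 1.41, 1.09, 1.10 and 1.40, of which Mcm2 had 0.96 with normexp. Dtl, which marks licensing factors for degradation, had 1.78, or 0.79 with normexp, and its substrate Cdt1 had 1.05. Pcna, the sliding clamp, was at 5.43 and 6.85, and Mcm10 had -0.17. Among cyclins, kinases and E2F factors 7 of 20 genes were higher and 0 lower (2 with normexp), with a median of 0.83, led by Ccnb1 at 1.61, Ccna2 at 1.34, Ccnb2 at 1.33 and the transcription factor Foxm1 at 1.29. Ccnb1 had 0.46 and Foxm1 0.75 with normexp. Mybl2, another factor of the mitotic program, had -0.29.

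All 14 measured genes of nucleotide supply stayed within 2-fold, with a median of 0.14. Rrm2, the regulated subunit of ribonucleotide reductase, was at 2.86 and 4.39, whereas Tk1, the thymidine kinase of S phase, was at 2.69 and 1.71. In the list of CDK inhibitors and p53 targets 2 of 25 genes were higher and 0 lower. These were Cdkn3, a phosphatase of the cycle, at 1.75 and Gtse1 at 1.12 (-0.16 with normexp), both themselves cell cycle genes. Cdkn1a, which encodes p21, had 0.82 (0.28 and 1.37 by probe), and Mdm2 had 0.19.

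**Figure D3:**
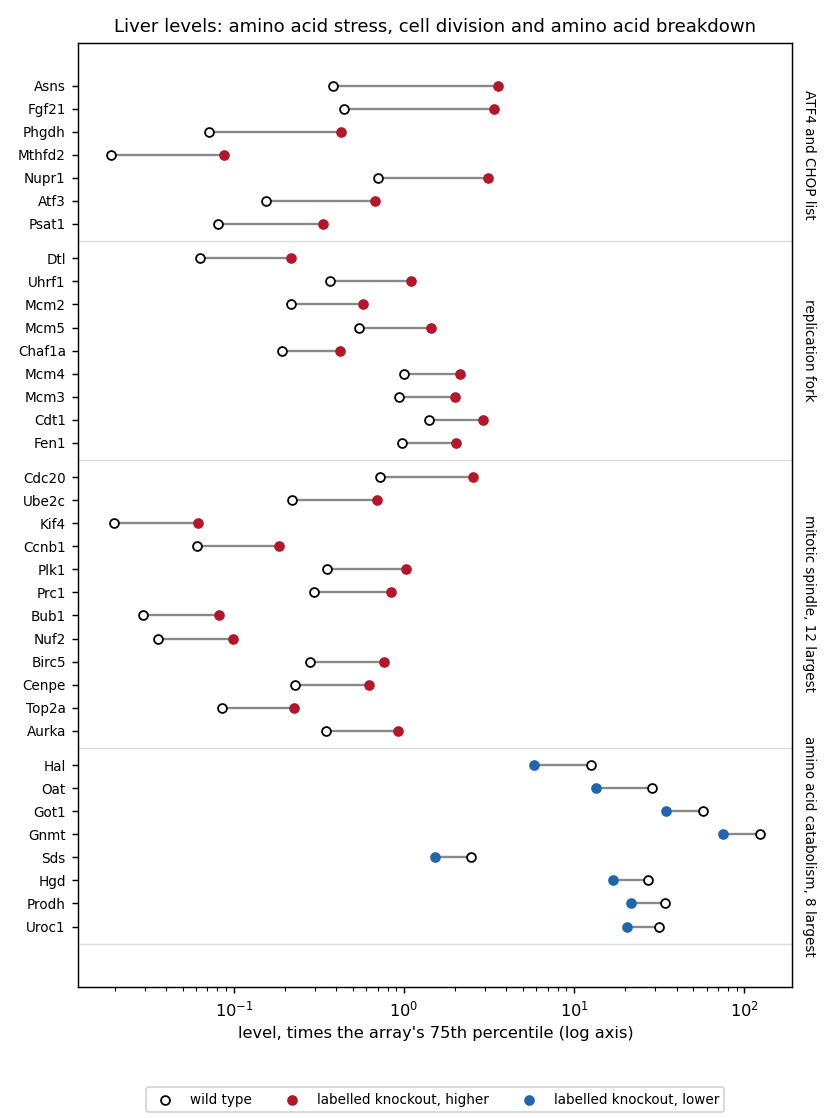
Level on the wild-type liver array (open circles) and on the labelled-knockout array (filled circles, red where higher and blue where lower), as multiples of the array's 75th percentile on a log axis, for the 7 amino acid stress genes and 9 replication genes at least 2-fold different, the 12 mitotic genes of largest ratio and the 8 amino acid catabolism genes of largest ratio. The first 3 groups lie to the right of wild type, with Asns going from 0.382 to 3.56, and the catabolism genes lie to the left at higher levels, with Gnmt going from 123 to 75.3.

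Promoters of 2 mitotic genes are shown because they hold the elements known to time expression to late cell cycle. The cell cycle genes homology region was searched as TTTGAA and the CCAAT box as CCAAT, on both strands of the same 250 bases. Of 27 mitotic genes with a promoter in the table, 8 held TTTGAA (29.6%), against 16.0% of all promoters, and 18 held CCAAT (66.7%), against 33.9%. Among the 11493 genes measured in liver with a promoter, the shares were 13.7% and 39.7%. Of the 19 that were higher, 7 held TTTGAA and 15 held CCAAT. In the replication list, 3 of 21 held TTTGAA and 14 held CCAAT. A STAT5 element (TTCNNNGAA) was in 3 of 22 female-biased and 1 of 22 male-biased genes, against 7.49% of genes measured in liver. An antioxidant response element (TGACNNNGC) was in 7 of 32 genes of the glutathione and NRF2 list, against 13.6%. It was in 0 of the 6 that differed 2-fold. Capitals mark TTTGAA on either strand, 18 to 13 bases before the start of Cdc20 (chr4:118437344-118437593, minus strand) and 29 to 24 bases before that of Ube2c (chr2:164769679-164769928, plus strand). The 2 promoters hold 2 and 6 CCAAT boxes, none of which overlaps the capitals.
Cdc20: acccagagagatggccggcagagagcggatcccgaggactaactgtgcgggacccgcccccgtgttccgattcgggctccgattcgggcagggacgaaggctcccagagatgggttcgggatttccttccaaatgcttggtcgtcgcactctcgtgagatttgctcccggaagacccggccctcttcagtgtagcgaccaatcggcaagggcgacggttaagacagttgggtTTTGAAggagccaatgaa
Ube2c: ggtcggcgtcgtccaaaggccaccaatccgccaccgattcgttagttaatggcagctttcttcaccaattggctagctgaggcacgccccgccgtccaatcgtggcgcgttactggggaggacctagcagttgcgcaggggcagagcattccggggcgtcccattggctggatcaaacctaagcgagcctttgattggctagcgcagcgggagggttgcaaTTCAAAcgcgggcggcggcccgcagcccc
In Cdc20 the capitals read on the gene's own strand, and in Ube2c they read on the opposite strand.

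Genes that make fatty acids lay mostly below 0, while 3 lipid droplet genes and 2 elongases and desaturases were higher. In fatty acid synthesis 22 of 25 measured genes lay below 0, 2 were lower and 1 higher, and the median of -0.58 was -0.38 relative to genes of the same level. Me1, which supplies NADPH, was at 18.0 and 8.41, and had -0.99 with quantile normalization. Pklr, the liver pyruvate kinase, was at 2.39 and 1.13 and had -0.97 with normexp. Fasn had a ratio of -0.70, Acacb, which makes malonyl-CoA at mitochondria, -0.82, Scd1, the main hepatic desaturase, -0.58, and their regulator Srebf1 -0.69. Against this trend Scd2, the desaturase of fetal liver and brain, was at 0.797 and 2.50. Elovl7, an elongase of saturated chains, was at 0.0743 and 0.573. The desaturases of polyunsaturated chains Fads1 and Fads2 had 0.34 and 0.72.

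Of 27 measured lipid droplet and uptake genes 3 were higher and 0 lower, with a median of 0.07. Cidec, which fuses droplets, was at 0.143 and 0.790. Its relative Cidea was at 0.0344 and 0.187, with a ratio of 0.83 under normexp. Lpl, which draws fatty acids from plasma lipoproteins, was at 3.66 and 7.43. The coat protein Plin2, by contrast, was at 31.7 in wild type and 34.1 in the labelled knockout. Apoa4, a lipoprotein induced in steatosis and fasting, was at 4.68 and 19.6 and was the only 1 of 22 apolipoprotein and assembly genes past 2-fold. Fatty acid oxidation and ketogenesis had 1 of 35 genes higher, Acot2 at 1.10 (0.67 with normexp), and a median of -0.22 that turned above that of all genes with normexp. Cholesterol synthesis had 0 of 25 genes past 2-fold and a median of 0.08.

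The carbohydrate genes that differed 2-fold did not reach this limit with normexp. Of 29 genes of glycolysis and gluconeogenesis 1 was higher and 2 lower (0 and 0 with normexp), against 1.76% and 0.871% of all genes. Their median of -0.09 turned above that of all genes with normexp. Beside Pklr, Khk, the fructokinase, was at 13.8 and 6.76 (-0.94 with normexp), and G6pc, which releases glucose, was at 64.1 and 38.3. Pfkp, Hk2, Aldoa and Pkm, isoforms more typical of other tissues, had ratios of 1.14, 0.97, 0.58 and 0.48, and Pfkp had 0.24 with normexp.

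Some drug-metabolising P450 enzymes in neither sex-biased list were lower as well. Each of those lists holds 34 chosen genes, so a gene outside them may still be sex-biased. Of 33 genes of the Cyp1 and Cyp2 families 10 were lower and 0 higher (8 and 0 with normexp), against 0.871% and 1.76% of all genes. Of the 27 that are in neither sex-biased list 8 were lower. Of these, Cyp2c50 and Cyp2c54 were close to the limit, with -0.97 and -0.93 under normexp. For all 33 the median was -0.72, or -0.64 relative to genes of the same level. Cyp2b10, the classical target of the receptor CAR, was at 64.9 and 24.2, and lies in the genome run with Cyp2b9 and Cyp2b13 of the female-biased list. Cyp2c29 had -0.81, Cyp1a2 -0.70 and Cyp2e1 -0.24. The receptors CAR (Nr1i3) and PXR (Nr1i2) had ratios of -0.44 and -0.31, and 0 of 32 nuclear receptors and partners reached 2-fold. Glucuronosyl- and sulfotransferases had 6 of 22 genes lower and 0 higher, and all 6 are sulfotransferases of the sex-biased lists. Uptake carriers of the Slc22 and Slco families had 5 of 18 lower, among them Slc22a7, a carrier of organic anions, at 5.23 and 1.64, and 1 higher, the Slco1a1 described above. Outside the sex-biased lists Slc22a7 and Slco2b1 were lower, 2 of 14, and Slco2b1 had -0.97 with normexp.

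The rate-limiting step of bile acid synthesis was level. Cyp7a1, which starts the classical pathway, was at 5.14 and 5.41. Of 27 genes 2 were higher and 1 lower, and the median was -0.26. Beside Cyp8b1 and Slco1a1, Abcc4, an export pump of the sinusoidal face, had 1.01 (0.72 with normexp). The canalicular pump Abcb11 had -0.46 and the uptake carrier Slc10a1 -0.43.

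A few genes linked to the oxidative stress factor NRF2 were higher. Of 37 genes of glutathione metabolism and NRF2, 5 were higher and 1 lower, against 1.76% and 0.871% of all genes. The median of -0.04 was close to that of all genes, and turned above it with processed signal plus 50, quantile, loess and normexp settings. Cbr3, a carbonyl reductase, was at 0.411 and 4.46, a 10.8-fold difference. Srxn1, which repairs oxidised peroxiredoxins, was at 5.71 and 15.1, and Gsta2, a glutathione transferase, at 10.1 and 23.2. The 2 glutathione peroxidases Gpx2 and Gpx3 had 1.05 and 1.02, or 0.35 and 0.54 with normexp. The classical targets Nqo1, Gclm, Txnrd1 and Hmox1 had 0.47, -0.17, 0.11 and 0.22, and Gstt3, another transferase, was lower at -1.18.

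**Figure D4:**
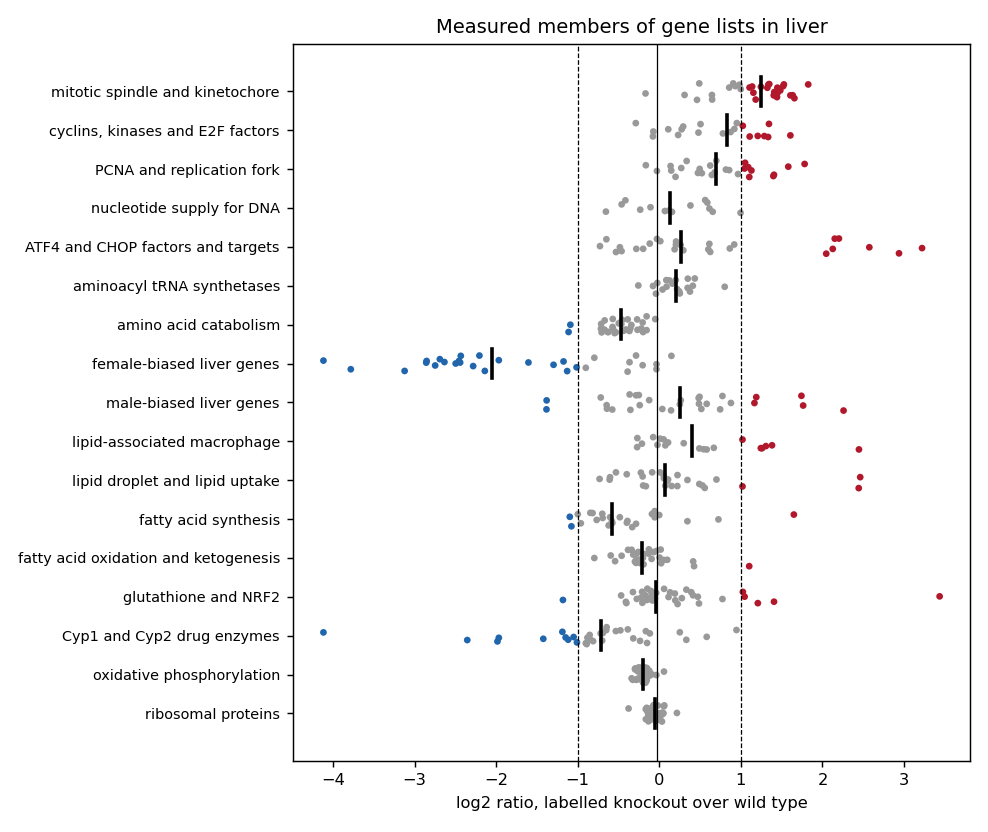
Log2 ratio of the labelled knockout over wild type (horizontal axis) for every measured member of 17 gene lists (rows), with points red where at least 2-fold higher, blue where at least 2-fold lower and grey otherwise, a thick bar at each list's median, dashed lines at 2-fold and a thin line at the median of all genes. The female-biased list has its median at -2.05 and the mitotic list at 1.25, while oxidative phosphorylation and ribosomal protein genes lie in a narrow band near 0.

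Macrophage genes split by subtype. Markers of lipid-associated macrophages, which take up lipid around dying or steatotic cells, had 6 of 20 measured genes higher and 0 lower (5 and 0 with normexp). The shares of all genes were 1.76% and 0.871%, and the median of the list was 0.39. Trem2, the defining lipid receptor, was at 0.109 and 0.594, and Lgals3, galectin-3, at 1.78 and 4.65. Cd63 and Anxa2 were at 7.80 and 4.50 in wild type and at 18.5 and 11.1 in the labelled knockout. Itgax had 1.26, or 0.62 with normexp. Several of these genes, among them Anxa2, Cd63 and Lpl, are also made by other liver cells. Among 19 Kupffer cell markers 0 reached 2-fold, with Clec4f at 9.42 and 8.15 and Timd4 at 0.466 and 0.397, and the median of -0.04 turned above that of all genes with normexp, processed signal plus 50, quantile and loess settings.

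Markers of blood cells lay mostly below 0. Of 15 neutrophil and monocyte markers 1 was lower, the granule protein Ltf (-1.65), with S100a9 at -0.87 and S100a8 at -0.78, while the monocyte receptors Ccr2 and Cx3cr1 had 0.94 and 0.84. T and NK cell markers had 1 of 19 lower, Cd247 at -1.63, whereas Cd3e, Cd3d and Cd8b1 had -0.18, -0.04 and 0.00. Ltf and Cd247, with 1 probe each, were dim, at 0.0811 and 0.0771 in wild type and 0.0259 and 0.0249 in the labelled knockout. Ccr2 and Cx3cr1, also with 1 probe each, were dim too, at 0.0383 and 0.0576 in wild type and 0.0733 and 0.103 in the labelled knockout. In the erythroid list 14 of 15 genes lay below 0 and 1 reached 2-fold, the transcription factor Klf1 at -1.04, and the globin Hba-a1 was at 25.3 and 14.7. The part of blood cells in the other results was not tested.

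Mesenchymal genes lay mostly above 0. Among 25 stellate cell and fibroblast markers 21 lay above 0 and 1 was higher, Timp1, an inhibitor of matrix proteases, at 0.0712 and 0.245 (0.85 with normexp), with a median of 0.25. Col1a1 had 0.65 and Pdgfra 0.59, while Acta2, which marks activated stellate cells, had -0.04. Endothelial markers had 1 of 27 higher, Esm1, a marker of vessel tips, at 0.262 and 1.13. Interferon-induced genes had 0 of 36 higher and 1 lower, Xaf1, whose 2 probes disagreed, with -3.46 and -0.12.

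Ubd had the highest ratio of all 14468 genes. It encodes FAT10, a ubiquitin-like protein induced by interferon gamma and TNF, and was at 0.0535 and 1.17, a 21.8-fold difference. The immunoproteasome subunits Psmb8 and Psmb9, induced by the same signals, had -0.26 and -0.22, and Ubd was the only 1 of 23 antigen presentation and proteasome genes past 2-fold.

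Some genes of the epithelial stress and fetal liver lists had large ratios, and these lists share members with lists above. Of 25 keratin, small proline-rich and barrier genes 5 were higher and 0 lower, also with normexp, against 1.76% and 0.871% of all genes. Tff3, a mucosal repair peptide, was at 0.361 and 6.58, Sprr1a, an envelope protein induced in injured epithelium, at 0.0514 and 0.756, and S100a11 at 0.370 and 0.994. The others, Anxa2 and Lgals3, are also counted in the lipid-associated macrophage list above. The ductal keratins Krt19 and Krt7 had -0.44 and -0.20, and of 21 cholangiocyte and ductal genes Tff3 was higher and Prom1 and Wfdc2 were lower, with -1.13 and -1.04 (-0.96 for Wfdc2 with normexp). The hepatocyte keratins Krt8 and Krt18 had 0.54 and 0.47. In the fetal and imprinted list 5 of 25 genes were higher and 0 lower (4 and 1 with normexp), against the same shares of all genes. Afp, alpha-fetoprotein, was at 0.318 and 1.45. Among the other higher genes, Lpl and Scd2 are also counted in the lipid lists above. The imprinted RNA H19 had a mean ratio of 2.15, but its 2 probes disagreed, with 0.34 and 3.97. The other imprinted genes Dlk1 and Gpc3 had 0.44 and 0.01. Among tubulins and actin partners Tuba8, Tubb6 and Tubb2a had 1.71, 1.16 and 0.99, and the tropomyosin Tpm2 had -1.23.

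Most plasma protein and organelle genes stayed within 2-fold, but some genes of the acute phase list and Hamp2 did not. Coagulation and complement had 0 of 26 and 0 of 27 genes past 2-fold. Among 31 genes of the acute phase list 5 were lower and 2 higher, against 0.871% and 1.76% of all genes. Of the lower ones, A1bg (-3.78) and Orm3 (-2.85) are also in the female-biased list. Orm1 and Orm2 had -1.15 and -1.25, and the metallothionein Mt1 had -1.49 with 2 probes that disagreed. The higher Afp (2.19) is also in the fetal list. Saa3, the isoform of macrophages and adipocytes, had 1.76, and the hepatocyte isoforms Saa1 and Saa2 had -0.40 and -0.56. Hamp2, a peptide related to the iron hormone hepcidin, was at 162 and 43.5. Oxidative phosphorylation had 0 of 42 genes at 2-fold and a median of -0.20, which turned above that of all genes with normexp and was -0.03 relative to genes of the same level. Ribosomal proteins had 0 of 40 and a median of -0.05, which turned above that of all genes with normexp, processed signal plus 50, quantile and loess settings. Of 25 pericentral genes 4 were lower (2 with normexp), among them Car3 at 89.5 and 37.9, and the zonation markers Glul at -0.40, Cyp2e1 at -0.24 and Axin2 at 0.29. Of 28 periportal genes 2 were lower and 1 higher. The medians of the pericentral and periportal genes were -0.24 and -0.34, or -0.20 and -0.13 relative to genes of the same level.

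Genes seen on 1 liver array have only a lower bound of their fold, the bright array's level over the dim array's floor. Bounds of at least 2-fold were reached by 81 genes seen on the labelled-knockout array (0.53% of 15278 genes) and 41 seen on the wild-type array (0.268%). The direction of a bound is set by the array on which the gene was seen. Several of these genes belong to the groups above, but for that reason they give those groups no separate support. Gpnmb and Mmp12, both of lipid-associated macrophages, were at least 8.61-fold and 3.88-fold higher, and the mitotic gene Dlgap5 and the replication factor Cdc6 were at least 4.18-fold and 2.90-fold higher. Aldh1l2, a mitochondrial folate enzyme and ATF4 target, was at least 2.73-fold higher. Areg, a ligand of the epidermal growth factor receptor, and the keratin Krt20 were at least 7.14-fold and 9.58-fold higher. On the wild-type array, Ifi44l, an interferon-induced gene, was at least 7.24-fold above the labelled knockout, and Nrarp, a target of Notch, at least 4.75-fold.

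Of the 255 higher genes 164 were in none of the 68 lists, and of the 126 lower genes 72 were in none. Among these the higher ones included Cgref1, a secreted growth regulator (0.297 and 2.18), Ly6d, a surface antigen (0.322 and 2.33), Nrg1, a ligand of ErbB receptors (0.101 and 0.540), Ffar4, a receptor for long fatty acids (0.0775 and 0.302), and Bhlha15, a transcription factor of secretory cells (0.129 and 0.656). The lower ones included Ptgds, a prostaglandin D synthase (0.900 and 0.171), Dct, a tautomerase of melanin synthesis (0.974 and 0.215), Coq8a, needed for coenzyme Q synthesis (2.70 and 0.862), and Rdh16, a retinol dehydrogenase (4.68 and 1.90). Ptgds lies within 500000 bases of Pnpla7 on chromosome 2 (mm9). Of 35 genes measured in that window 2 differed 2-fold, against 2.63% of all genes, the other being Uap1l1 at 1.27. The median of the 35 genes was -0.02.

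Most of the liver differences were not past 2-fold in WAT. Of 234 higher liver genes that were measured in WAT, 9 were higher there too (3.85% of the liver set and 3.56% of the 253 in WAT), and of 77 lower ones 7 were lower (9.09% of the liver set and 2.82% of the 248 in WAT). In WAT 2.18% of all genes were higher and 2.11% lower. The shared higher genes were Sprr1a, S100g, Tuba8, Cidea, Bex1, Cox6a2, Dusp4, Slc13a5 and Ly6d. The shared lower genes were Hamp2, Wfdc21, Cyp3a16, Cyp2c68, Cyp2c50, Apol7a and Aqp8. Hepatocyte markers as a group were also lower in the WAT pair, with a median of -1.27 over 23 genes and Alb at -1.58. The part of liver-type RNA in the WAT values of the shared lower genes was not tested. Other genes went opposite ways, with 9 higher in liver and lower in WAT (3.85% of the liver set and 3.63% of the WAT set) and 8 lower in liver and higher in WAT (10.4% and 3.16%). In WAT the 31 mitotic genes had a median of 0.07, with Cdc20 at 0.22 and Ube2c at -0.37, and Fgf21 had 0.09.

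**Figure D5:**
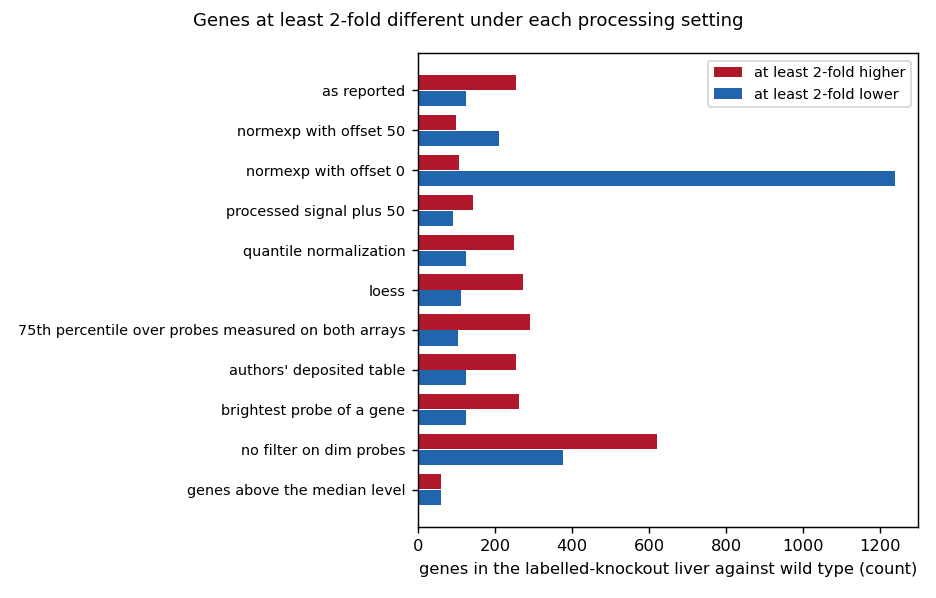
Number of liver genes at least 2-fold higher (red) and at least 2-fold lower (blue) in the labelled knockout (horizontal axis) under the reported processing and each alternative (rows). Normexp with an offset of 0 gives 107 higher and 1238 lower genes, and adding 50 to the processed signal without normexp gives 144 and 90, against 255 and 126 as reported.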

How the data were processed

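RNA from livers, pooled from 5 animals a group, was hybridised in 1 colour to 1 Agilent array per group, and spots were read with Agilent Feature Extraction 11.0.1.1, per the submitters' processing notes. The authors deposited scanner intensities, and the background-corrected processed signal among the deposited columns, per the file headers, gave the values here. Control spots were left out, spots of a probe were averaged, log2 of the signal minus each array's 75th percentile was taken, and probes of a gene were averaged. The authors' deposited table, which holds processed signal over the array's 75th percentile, was used as an alternative only, after log2 was taken. It holds 0 columns of other samples. Probes were matched to the RefSeq gene table (GRCm38.p6, names only, since the files are on mm9), with 27234 matched by accession, 3576 by symbol, 565 by synonym and 8054 unmatched. This left 28522 probes of 19899 genes.

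Genes named were the 40 highest and 40 lowest ratios among genes at least 2-fold different, of 1 sign over their probes and above the 25th percentile of level, the list members at least 2-fold different, up to 6 further members of largest ratio and 4 of highest level per list, the 10 largest bounds per direction, members of genome runs, genes within 500000 bases of Pnpla7, and 10 genes per pattern with WAT. Further list members of known role, many of them within 2-fold, were named after their values were seen. The members and lists were chosen with earlier results of these data known. Some genes that meet the rule are not reported here. Alternatives were other background corrections, scalings, probe choices and filters. The scripts were tested on simulated data and used Python 3.11.15, numpy 2.4.6, pandas 2.3.3, statsmodels 0.14.6, matplotlib 3.10.9, R 4.3.3 and limma 3.58.1 (normexp). With 1 array per group the number of arrays limits the precision, and no test was made.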

Additional observations from a re-analysis of the deposited data

Results flagged for a closer look

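In 17 genes the single liver array and the single WAT array of the labelled knockout lay at least 2-fold on opposite sides of their wild-type arrays. The difference between the tissues was not tested. Among those higher in liver and lower in WAT were Slpi, a protease inhibitor of mucosa (log2 ratio 2.21 in liver and -1.26 in WAT), Esm1, an endothelial proteoglycan (2.11 and -2.85), Timp1 (1.78 and -2.02), Saa3 (1.76 and -2.15), Adamts4, a matrix protease (1.76 and -1.20), and Ccl2, the chemokine that draws monocytes (1.03 and -1.15). With normexp the liver ratios of Timp1, Adamts4 and Ccl2 were 0.85, 0.71 and 0.48. Among those lower in liver and higher in WAT were Acpp, an acid phosphatase (-2.45 and 2.09), Cxcl13, the chemokine that draws B cells (-1.75 and 1.19), Coq8a (-1.65 and 1.55), Cyp2b10 (-1.42 and 2.37), Acot11, a thioesterase of brown fat (-1.16 and 2.31), and Wfdc2, an epithelial secreted protein (-1.04 and 6.87). The other 5 genes were Akr1c18 (1.68 and -1.11), Cd209a (1.28 and -1.09), Slamf9 (1.01 and -1.07), Zmynd12 (-1.13 and 1.53) and Rgs16 (-1.12 and 1.67). The liver ratio of Wfdc2 was -0.96 with normexp.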

How the results depend on the processing

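No paired analysis was possible because each group had 1 array. Reported counts of 255 higher and 126 lower genes changed by over 1.5 times under 5 settings. They were 98 and 211 with normexp at an offset of 50, and 107 and 1238 at an offset of 0. They were 620 and 377 with no filter on dim probes, over 19899 genes, and 60 and 60 among the 7234 genes above the median level. Adding 50 to the processed signal gave 144 higher genes. Quantile, loess, rescaling, the brightest probe and the authors' deposited table stayed within 1.5 times. Of the 381 genes, 349 kept their sign with normexp at an offset of 50 and 351 at 0. With the first, the named genes that turned below 0 were Btc (-0.089), Bub1 (-0.063), Ccl4 (-0.25), Cspg5 (-0.084), Dusp4 (-0.11), Gtse1 (-0.16), Kif11 (-0.024) and Kif4 (-0.038). With an offset of 0 they were Btc (-0.071), Bub1 (-0.035), Ccl4 (-0.28), Cspg5 (-0.062), Dusp4 (-0.093) and Gtse1 (-0.17). The cause was not tested. Setting list medians against genes of the same level, an alternative chosen after seeing the data, moved 5 of 68 lists by over 0.20. This limit is the pooled SD of the log2 ratio between probes of a gene. Genes near background carry the least certain ratios.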

Other observations

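The circadian clock list had 0 of 19 measured genes at 2-fold, with the clock output genes Dbp at 35.1 and 27.2 and Tef at 40.7 and 32.4, Per2 at 0.656 and 0.655, and Cry1 with the largest ratio at 0.55. Among 22 immediate early genes 4 were higher and 1 lower (1 and 0 with normexp). Beside Atf3, these were Myc at 1.02, Ier3 at 1.08 and Dusp4 at 1.18, or 0.78, 0.06 and -0.11 with normexp, and the phosphatase Dusp1 at -1.04, or -0.96.

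Of 23 heat shock genes Hspb1, a small chaperone, was higher, at 2.07 and 4.29. Among 32 hepatokines and growth factors 3 were higher and 0 lower. Beside Fgf21, Fst, which binds activin, was at 0.601 and 1.52, and Btc, a ligand of the epidermal growth factor receptor, had 1.04, or -0.09 with normexp. The metallothionein Mt1 had a mean ratio of -1.49, but its 2 probes disagreed, with -2.76 and -0.23. Lysosome and autophagy genes had 0 of 32 at 2-fold, and sphingolipid and ceramide genes 0 of 18.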
